A study of Homo sapiens with 6 samples.

Results

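Cystatins are small protein inhibitors of papain-like cysteine proteases, and this account follows 9 cystatin genes in MDA-MB-231 cells with and without knockdown of S100A10. The 9 genes are CST1, CST2, CST3, CST4, CST6, CST7, CST8, CSTA and CSTB, out of 15669 genes named on the array. They were taken by gene symbol, and each is read by 1 probe set. The family was selected on its measured log2 changes against the control hairpin, CST1, CST2 and CST4 being higher in the knockdown cells and CST7 behaving differently. The changes of these 9 genes are therefore given as a description, without p-values, and nothing is read from how many of them pass a threshold.

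MDA-MB-231 is an established cell line from a human breast cancer of the triple-negative kind. The study measured total RNA on 6 arrays in 3 groups of 2. One group carried the control hairpin shNCT, and the others carried shS100A10_1 or shS100A10_5, which are different short hairpin RNAs against S100A10. The hairpins were delivered by lentivirus, and cells of all 3 groups grew with 10% serum and 2.5 µg/ml puromycin. The labels do not say whether the cells were pools or clones, or whether replicate arrays stem from different cultures. P-values here thus cover the spread between arrays alone, and that spread may be technical.

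A cystatin acts as a wedge that blocks the active-site cleft of a cathepsin without being cut itself. Type 1 cystatins, also called stefins (CSTA and CSTB), lack a signal peptide and work mainly in the cytosol and nucleus. Type 2 cystatins (CST1 to CST4, CST6, CST7 and CST8) are made with a signal peptide and are mostly secreted. Several of the type 2 genes lie together in a cluster on chromosome 20, and CST1, CST2 and CST4 form its salivary-type group of close paralogs. In tumours, the balance between secreted cystatins and cathepsins is studied because cathepsins released by tumour cells degrade extracellular matrix.

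S100A10, which encodes the annexin A2 partner p11, was read first as a check of the labels. The controls read 88860.2 and 92938, the shS100A10_1 arrays 1969 and 1545, and the shS100A10_5 arrays 13565 and 9460.5. The log2 change was -5.70 (SE 0.21; limma, adjusted p = 1.71e-06) with shS100A10_1 and -3.004 (SE 0.21; limma, adjusted p = 0.000442) with shS100A10_5. Both hairpin groups thus lay below the controls without overlap, and more signal was left with shS100A10_5. Median intensity was between 232 and 238 on all 6 arrays. On the first principal component, with 45.2% of the variance, replicate 2 of shS100A10_5 stood farthest out at 41.1, against 18.7 for replicate 1 and -18.2 to -10.0 for the other 4 arrays. Some of the values that change without this array are given below. VIM, the vimentin gene that marks mesenchymal breast lines, read 83402 to 102872 over the 6 arrays, while the E-cadherin gene CDH1 read 8.86 to 16.5, dimmer than all but 4.23% of probe sets by its mean. Not all luminal genes measured were dim. KRT19 read 6380 to 14043 and EPCAM 935 to 1730, with mean levels at the brightness percentiles 93.9 and 71.3. The means of GATA3, FOXA1, MUC1 and TFF1 were at percentiles from 14.95 to 42.6.

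CST1, CST2 and CST4, which encode the salivary-type cystatins SN, SA and S, were higher with both hairpins. CST1 intensity was 8772 and 9413 in the controls, 34249.6 and 30966 with shS100A10_1, and 21916 and 20732 with shS100A10_5. The 3 groups did not overlap, and the order was the control, shS100A10_5 and then shS100A10_1. On the log2 scale the CST1 levels were 13.15 ± 0.072, 14.99 ± 0.10 and 14.38 ± 0.057 (SD, n = 2 each) in shNCT, shS100A10_1 and shS100A10_5. These correspond to 3.58-fold more signal with shS100A10_1 (log2 change 1.84, SE 0.17) and 2.35-fold more with shS100A10_5 (1.23, SE 0.17). Because RNA was taken from whole cultures, a higher share of expressing cells and more RNA per cell cannot be told apart.

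CST4 intensity was 5135 and 5228 in the controls, 13052 and 13371 with shS100A10_1, and 12043 and 11022 with shS100A10_5. Its replicate arrays were close together, with log2 levels of 12.34 ± 0.018 in the controls, 13.69 ± 0.025 with shS100A10_1 and 13.49 ± 0.090 with shS100A10_5 (SD, n = 2 each). The log2 change was 1.35 (SE 0.17, 2.55-fold) with shS100A10_1 and 1.15 (SE 0.17, 2.22-fold) with shS100A10_5. Both hairpin groups lay far above the controls, and the arrays of the 2 hairpins were separated from each other only by a small gap (log2 difference -0.20, SE 0.17, shS100A10_5 minus shS100A10_1).

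CST2 intensity was 3127 and 2775 in the controls, 6889 and 5658 with shS100A10_1, and 5988 and 4962 with shS100A10_5. All 4 hairpin arrays exceeded both controls, but the hairpin groups overlapped each other. The log2 change was 1.08 (SE 0.19, 2.12-fold) with shS100A10_1 and 0.89 (SE 0.19, 1.85-fold) with shS100A10_5, the smallest of the 3 salivary-type genes with either hairpin. The order of the changes, CST1 above CST4 above CST2, was the same with both hairpins, which share their 2 control arrays. The probe sequences were not used here, and since these paralogs are alike in sequence, signal that one transcript gives on another gene's probes cannot be told apart from that gene's own signal.

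**Figure D1:**
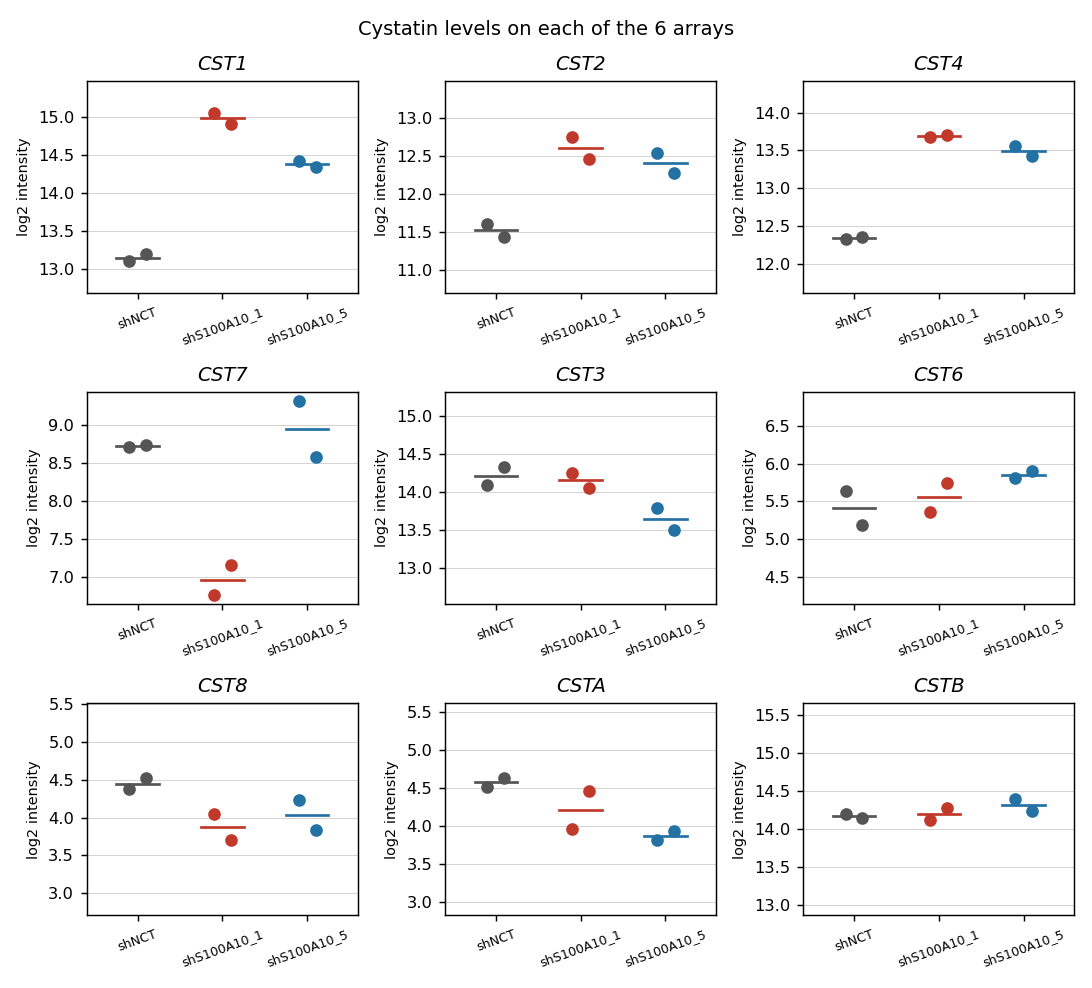
Log2 intensity of the 9 cystatin genes on each array (points) with the mean of the 2 arrays in a group (bars), by hairpin. All panels span the same number of log2 units around different centres. CST1, CST2 and CST4 are higher on all 4 hairpin arrays, and CST7 is lower on both shS100A10_1 arrays, at 108 and 142 against 421 and 427 in the controls.

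CST7 encodes cystatin F, which is made mainly by cytotoxic lymphocytes and myeloid cells and is directed to the endosomes and lysosomes, where it restrains cathepsin C. Its intensity was 421 and 427 in the controls, 108 and 142 with shS100A10_1, and 641 and 384 with shS100A10_5. With shS100A10_1 both arrays lay well below the controls, whereas with shS100A10_5 one array lay above and the other below them. The log2 change was -1.77 (SE 0.25), or 3.42-fold lower, with shS100A10_1 and 0.23 (SE 0.25) with shS100A10_5. Between the hairpins CST7 was 4.01-fold higher with shS100A10_5 (log2 difference 2.002, SE 0.25). The control level of 8.73 ± 0.016 and the shS100A10_5 level of 8.96 ± 0.52 (log2, SD, n = 2 each) did not differ beyond the spread of the latter.

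The 2 shS100A10_5 arrays were 0.74 log2 apart for CST7, a gap as large as or larger than that of 95.9% of probe sets in this group. The change with shS100A10_5 was 0.60 without its replicate 2 and -0.14 without its replicate 1, so its sign rested on which array was used. The difference between the hairpins kept its sign, at 2.37 and 1.63 without these arrays in turn. Of 16 leukocyte markers listed, 12 were measured. Their summed intensity was 7037 to 7336 in the controls, 8289 to 8730 with shS100A10_1 and 5216 to 6704 with shS100A10_5. CD68, a lysosomal protein gene of macrophages, alone made up 83.5% to 89.4% of this sum. Without CD68 the sum was 752 to 811 in the controls, 925 to 976 with shS100A10_1 and 862 to 949 with shS100A10_5. Their median log2 change was 0.22 with shS100A10_1, where CST7 was low, and 0.072 with shS100A10_5. PTPRC, the pan-leukocyte gene CD45, was singled out after its values were seen and read 34.5 to 57.0 over the 6 arrays (log2 change 0.27 and 0.25, SE 0.24 each; limma, adjusted p = 0.831 and 0.602). LYZ, the lysozyme gene, was the 1 of 12 past limma's threshold with either hairpin, against 0.189% and 3.18% of all probe sets. It was higher by 1.56 and 1.35 (limma, adjusted p = 0.00869 and 0.00865), so its direction was the same with both hairpins. Cell composition as a part of the CST7 result was not tested beyond these values.

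CST3 encodes cystatin C, the widely expressed inhibitor that is measured in serum as a marker of kidney function. Its intensity was 17374 and 20631 in the controls, 19433 and 17019 with shS100A10_1, and 14113 and 11603 with shS100A10_5. The shS100A10_1 arrays overlapped the controls (log2 change -0.058, SE 0.19), while both shS100A10_5 arrays were lower than all 4 other arrays (-0.57, SE 0.19, or 1.48-fold lower). Without shS100A10_5 replicate 2 the change was -0.42. With shS100A10_5 its signal thus lay on the other side of the controls from that of its cluster neighbours CST1, CST2 and CST4.

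CST6 encodes cystatin E/M, which inhibits both cathepsins and the asparaginyl endopeptidase legumain and is known in breast tissue as a gene that can be silenced in tumours. Its signal was dim, at 49.9 and 36.4 in the controls, 41.2 and 53.6 with shS100A10_1, and 55.9 and 59.8 with shS100A10_5. The shS100A10_1 arrays spanned the same range as the controls, and the shS100A10_5 arrays were just above all others. The log2 changes of 0.14 and 0.44 (SE 0.21 each) compare with a gap of 0.45 log2 between the 2 controls. A CST6 level apart from the controls was therefore not seen beyond replicate spread.

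CST8, which encodes a cystatin of the male reproductive tract, and CSTA, the stefin A gene of keratinocytes and myeloid cells, were among the dimmest probe sets. CST8 read 20.7 and 22.9 in the controls, 16.5 and 13.0 with shS100A10_1, and 18.8 and 14.3 with shS100A10_5. CSTA read 22.9 and 24.8 in the controls, 15.5 and 22.1 with shS100A10_1, and 14.03 and 15.3 with shS100A10_5. Both genes were lower on all 4 hairpin arrays than on both controls. Their mean log2 levels exceeded those of only 11.8% and 13.5% of probe sets, a statement of probe brightness and not of transcript number. With no detection calls in the table, such dim signals cannot be told apart from background. With 16 added to every intensity before log2, the CST8 change with shS100A10_1 shrank from -0.58 to -0.30, and the CSTA change with shS100A10_5 from -0.70 to -0.38.

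CSTB encodes stefin B, the cytosolic and nuclear inhibitor whose loss causes a progressive myoclonic epilepsy. It was bright on every array, at 18833 and 18157 in the controls, 17824 and 19908 with shS100A10_1, and 21595 and 19315 with shS100A10_5. The log2 changes were 0.027 and 0.14 (SE 0.17 each). CSTB was the steadiest of the 9 genes, with intensities from 17824 to 21595, though both shS100A10_5 arrays were above both controls.

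**Figure D2:**
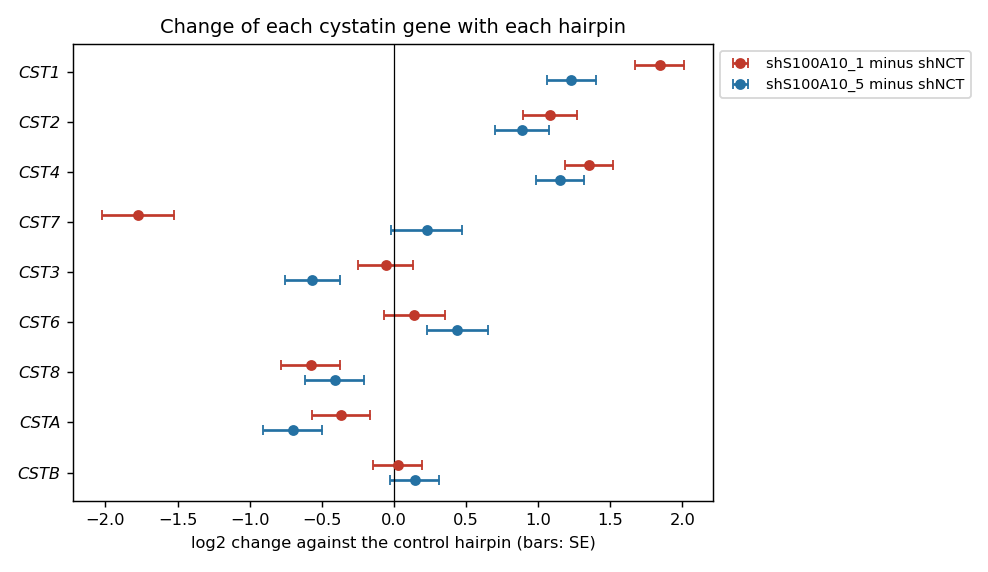
Log2 change of each cystatin gene against the control hairpin, with the standard error from the fit across all probe sets (bars), for shS100A10_1 and shS100A10_5. CST1, CST2 and CST4 lie between 0.89 and 1.84 with both hairpins, and CST7 lies at -1.77 with shS100A10_1 and 0.23 with shS100A10_5.

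Counted over the family, 3 of 9 genes passed the limma threshold (adjusted p under 0.05 over all probe sets) with shS100A10_1, CST1 and CST4 higher and CST7 lower. Over all probe sets 0.189% passed it, 0.100% higher and 0.0884% lower. With shS100A10_5, CST1, CST2 and CST4 were the 3 of 9 past the threshold, all higher, against 3.18% of all probe sets in either direction and 1.43% higher. Between the hairpins only CST7 passed, higher with shS100A10_5, against 2.91% of all probe sets in either direction and 1.43% higher. Hairpin and control arrays did not overlap for 6 of 9 genes with shS100A10_1, 3 higher and 3 lower. This held for 42.4% of all probe sets, 21.9% higher and 20.5% lower. With shS100A10_5 they did not overlap for 8 of 9, 5 higher and 3 lower, against 50.5% of all probe sets, 26.7% higher and 23.8% lower. Since the genes were picked for these changes, nothing is read from the counts. The median log2 change of the 9 genes was 0.027 with shS100A10_1, 0.23 with shS100A10_5 and -0.20 between the hairpins. The same medians over all probe sets were 0.0056, 0.025 and 0.016. The changes of the 9 genes lay on both sides of 0, from -1.77 to 1.84 with shS100A10_1 and from -0.70 to 1.23 with shS100A10_5, so a median says little of single genes.

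The changes of CST1, CST2 and CST4 were recomputed with each array left out. CST1 ranged from 1.77 to 1.91 with shS100A10_1 and from 1.18 to 1.28 with shS100A10_5, CST4 from 1.33 to 1.37 and from 1.09 to 1.22, and CST2 from 0.94 to 1.23 and from 0.75 to 1.02. CST7 ranged from -1.97 to -1.58 with shS100A10_1. As the arrays of these genes did not overlap between hairpin and control, the signs could not change in these fits. A fit without an array of a compared group leaves 1 array in that group. In every such fit against the control, fewer of the 9 genes passed the threshold than with all arrays. With shS100A10_1 only the CST1 call held with each array left out, and with shS100A10_5 no call of the 9 genes did. Over all probe sets the number past the threshold also fell with shS100A10_1, and it fell or rose with shS100A10_5. Nothing is read from these calls. Without replicate 2 of shS100A10_5, CST1, CST2 and CST4 were higher by 1.27, 1.02 and 1.22 with shS100A10_5.

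**Figure D3:**
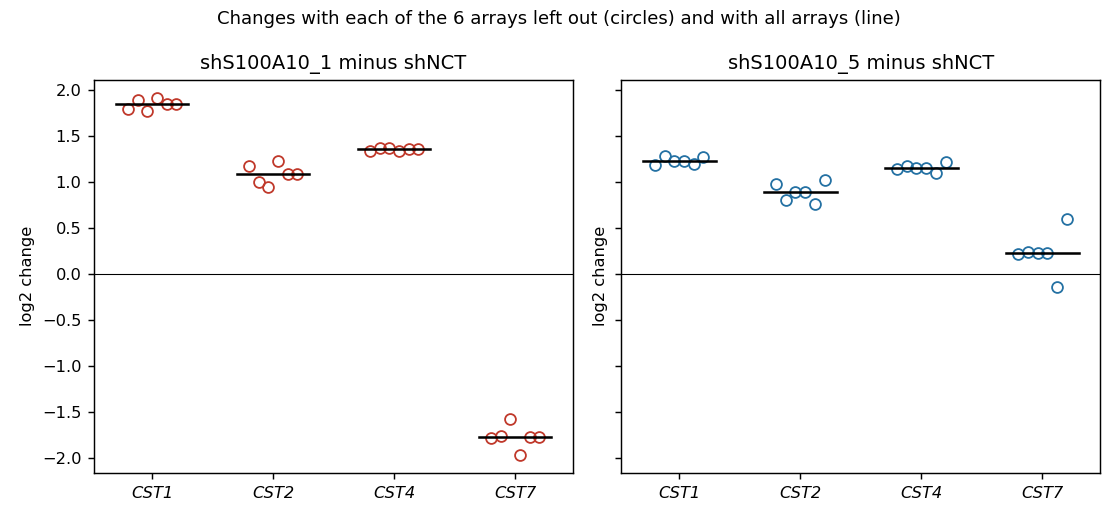
Log2 change of CST1, CST2, CST4 and CST7 against the control hairpin with all arrays (black lines) and with each of the 6 arrays left out in turn (circles); leaving out an array of the other hairpin leaves the change as it is. The salivary-type genes move little, while CST7 with shS100A10_5 ranges from -0.14 to 0.60.

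Of the 9 genes, 6 lie on chromosome 20 in the order CST8, CST3, CST4, CST1, CST2 and CST7, while CST6 is on chromosome 11, CSTA on chromosome 3 and CSTB on chromosome 21 (RefSeq, GRCh38.p14; all 9 matched by gene identifier). The 3 salivary-type genes follow each other directly among the measured genes, with CST3 before them and CST5 after them. CST5, GGTLC1 and SYNDIG1, which lie between CST2 and CST7 and are named for that place, had log2 changes of -0.051, 0.015 and -0.37 with shS100A10_1 and 0.031, 0.16 and -0.11 with shS100A10_5 (limma, adjusted p from 0.674 to 0.994). CST5 encodes cystatin D, another salivary cystatin, and read 41.3 to 55.8 over the 6 arrays, with all groups overlapping. A higher signal like that of CST1, CST2 and CST4 was thus not seen for CST3 on one side or CST5 on the other.

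The window of 5 measured genes beyond either end of the cluster held 14 genes other than the 6 described. CST9 and CST11 had an unadjusted limma p under 0.05 with shS100A10_1. With shS100A10_5 LINC00656, NXT1, GZF1 and APMAP did (log2 changes 0.66, -0.76, 0.39 and -0.80). Over all probe sets 8.44% and 21.0% met that looser threshold. Past limma's adjusted threshold between the hairpins were 3 of 14, against 2.91% of all probe sets. None of the 14 passed it with shS100A10_1 (0.189% of all probe sets), and 1 of 14 passed with shS100A10_5 (3.18%). That gene was APMAP, the first measured gene beyond CST7, which fell by 0.80 on the log2 scale with shS100A10_5 (log2 change -0.80, SE 0.17; limma, adjusted p = 0.035) after a change of 0.11 with shS100A10_1 (adjusted p = 0.923). APMAP intensity was 4772 and 4438 in the controls, 4917 and 4996 with shS100A10_1, and 2560 and 2712 with shS100A10_5. The APMAP call was lost without either control array (limma, adjusted p = 0.166 and 0.185) and without either shS100A10_5 array (0.0524 and 0.145).

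CST9 and CST11, type 2 cystatins of the male reproductive tract at the other end of the cluster, were the other neighbours past the threshold, both between the hairpins. CST9 read 21.01 and 26.3 in the controls, 13.2 and 15.2 with shS100A10_1, and 28.6 and 31.5 with shS100A10_5, and the log2 difference between the hairpins was 1.09, higher with shS100A10_5 (SE 0.19; limma, adjusted p = 0.0179). It was lost without either shS100A10_1 array (0.111 and 0.052) or shS100A10_5 replicate 2 (0.12). CST11 read 12.05 and 13.7 in the controls, 22.2 and 26.0 with shS100A10_1, and 12.1 and 15.1 with shS100A10_5, with a log2 difference of -0.83 (SE 0.19; limma, adjusted p = 0.0496). The CST11 call was lost with any single array left out (adjusted p from 0.0752 to 0.21) and under 5 other settings, namely median centring (0.0502), a robust prior (0.0528), quantile normalization (0.0556), only the groups compared (0.0752) and 16 added to every intensity (0.104, with the difference at -0.44). Both probe sets were dim, with mean levels above only 16.9% and 10.1% of probe sets, in the range of CST8 and CSTA.

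**Figure D4:**
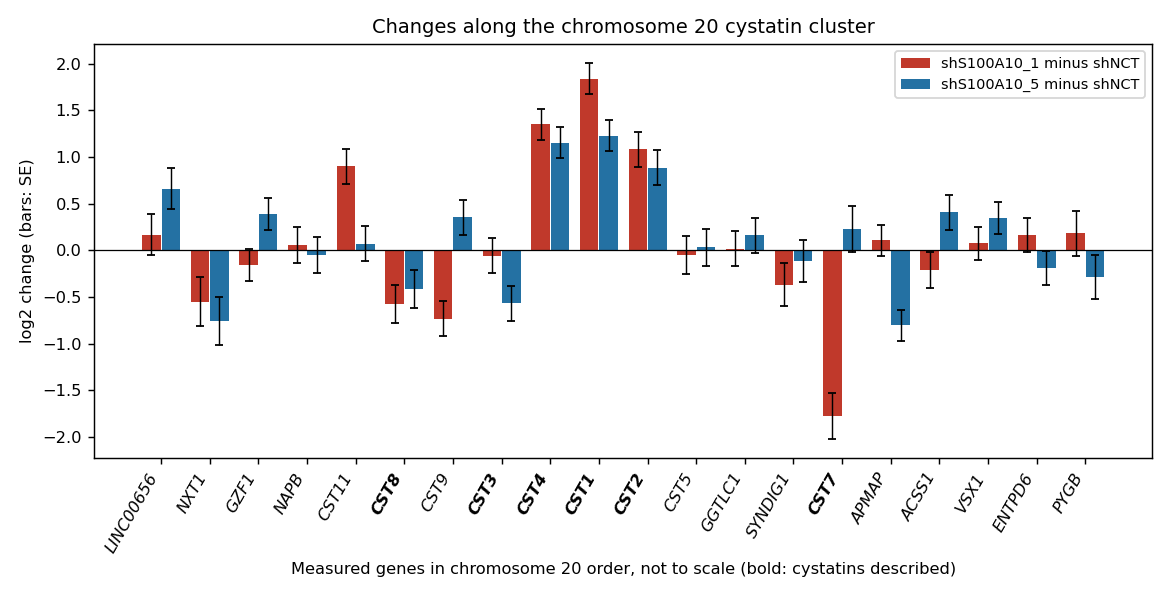
Log2 change against the control hairpin of the measured genes along the chromosome 20 cystatin cluster, in genomic order and not to scale, with standard errors (bars). CST4, CST1 and CST2 stand at 0.89 to 1.84 with both hairpins, next to CST3 and CST5, which lie between -0.57 and 0.031.

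Promoters were read from RefSeq (GRCh38.p14), where of the 9 genes CST3 was matched and CST1, CST2, CST4, CST6, CST7, CST8, CSTA and CSTB were not. CST3 is shown because it adjoins the 3 salivary-type genes yet did not share their higher signal, and CST5 because it bounds them on the other side. Each window runs from 250 bases before to 50 bases after the gene start, on the minus strand, at chr20:23637906-23638205 for CST3 and chr20:23879699-23879998 for CST5. Capitals mark matches to any of the motifs searched.
CST3: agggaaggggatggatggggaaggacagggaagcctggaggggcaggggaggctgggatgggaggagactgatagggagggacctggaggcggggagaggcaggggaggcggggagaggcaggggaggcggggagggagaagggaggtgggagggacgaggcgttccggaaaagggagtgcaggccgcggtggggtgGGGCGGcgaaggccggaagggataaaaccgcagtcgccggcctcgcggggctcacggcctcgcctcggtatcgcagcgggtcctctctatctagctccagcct
CST5: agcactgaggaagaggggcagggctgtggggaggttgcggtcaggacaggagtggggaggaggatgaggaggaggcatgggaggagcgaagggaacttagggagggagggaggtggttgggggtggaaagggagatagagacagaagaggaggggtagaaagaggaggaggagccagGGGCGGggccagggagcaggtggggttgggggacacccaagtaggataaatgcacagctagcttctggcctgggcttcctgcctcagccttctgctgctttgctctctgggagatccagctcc
The motifs were the GC box GGGCGG, the CCAAT box CCAAT, the TATA box TATAAA, the AP-1 motif TGANTCA and the E-box CACGTG, on both strands. The first overlaps none of the others in letters. Each promoter held 1 GC box, starting 53 bases before the gene start in CST3 and 73 bases before it in CST5, and neither held the other 4 motifs. Of 35116 promoter windows of the same length, 45.0% held a GC box, 34.6% a CCAAT box, 11.5% a TATA box, 7.71% an AP-1 motif and 7.26% an E-box. The CST3 window was 69.7% G and C, above 78.9% of windows, and the CST5 window 62.0%, above 58.6% of them. These matches describe the letters and say nothing of factor binding.

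The proteases that cystatins inhibit were read as a list of 12 genes, the papain-like cathepsins and legumain, all 12 measured and none used to choose the cystatins. None passed limma's threshold over all probe sets in any of the 3 comparisons. At an unadjusted p under 0.05, 1 of 12 was higher with shS100A10_1, 2 were higher and 1 lower with shS100A10_5, and 1 was lower with shS100A10_5 than with shS100A10_1. Over all probe sets 8.44%, 21.0% and 19.9% met that looser threshold. The median log2 change of the list was 0.091 with shS100A10_1 and 0.016 with shS100A10_5.

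CTSC, the aminopeptidase that activates serine proteases of immune granules and is the target of cystatin F, read 49267 and 50204.5 in the controls, 50586 and 53908 with shS100A10_1, and 41153 and 40472 with shS100A10_5. It was lower on both shS100A10_5 arrays than on the other 4 (log2 change -0.29, SE 0.16; limma, adjusted p = 0.358), and its change with shS100A10_1, where CST7 was low, was 0.070 (adjusted p = 0.954). CTSB, the abundant lysosomal cathepsin B gene, read 16290.4 to 20254 over the 6 arrays, with changes of 0.13 and 0.245 (SE 0.17; limma, adjusted p = 0.899 and 0.438). CTSL, which encodes the endopeptidase cathepsin L, had changes of 0.17 and 0.12 (SE 0.19 each; adjusted p = 0.877 and 0.766). CTSV, its close relative of thymus and skin, had changes of -0.054 and 0.12 (SE 0.20 each; adjusted p = 0.976 and 0.777). LGMN, the legumain gene, read 3112 and 3051 in the controls and 4022 and 4173 with shS100A10_5 (log2 change 0.41, SE 0.16; limma, adjusted p = 0.188).

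The largest change among the proteases was that of CTSS, the cathepsin S gene of antigen-presenting cells, an enzyme that stays active at neutral pH. CTSS read 107 and 81.1 in the controls, 191 and 226 with shS100A10_1, and 125 and 164 with shS100A10_5. All 4 hairpin arrays were above both controls, with log2 changes of 1.15 (SE 0.21; limma, adjusted p = 0.0821) and 0.62 (SE 0.21; adjusted p = 0.131). With shS100A10_1 it passed the threshold without probe sets below the lower quartile (limma, adjusted p = 0.0471) and with an intensity trend (0.0328). CTSF and CTSK, the genes of cathepsin F and of the osteoclast collagenase cathepsin K, had negative changes with both hairpins, of -0.35 and -0.57 (SE 0.20 each) for CTSF and -0.27 and -0.47 (SE 0.33 each) for CTSK (limma, adjusted p from 0.145 to 0.899). CTSF passed with shS100A10_5 when its replicate 1 was left out (log2 change -0.83; limma, adjusted p = 0.0477), while without its replicate 2 the change was -0.31 (adjusted p = 0.457).

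**Figure D5:**
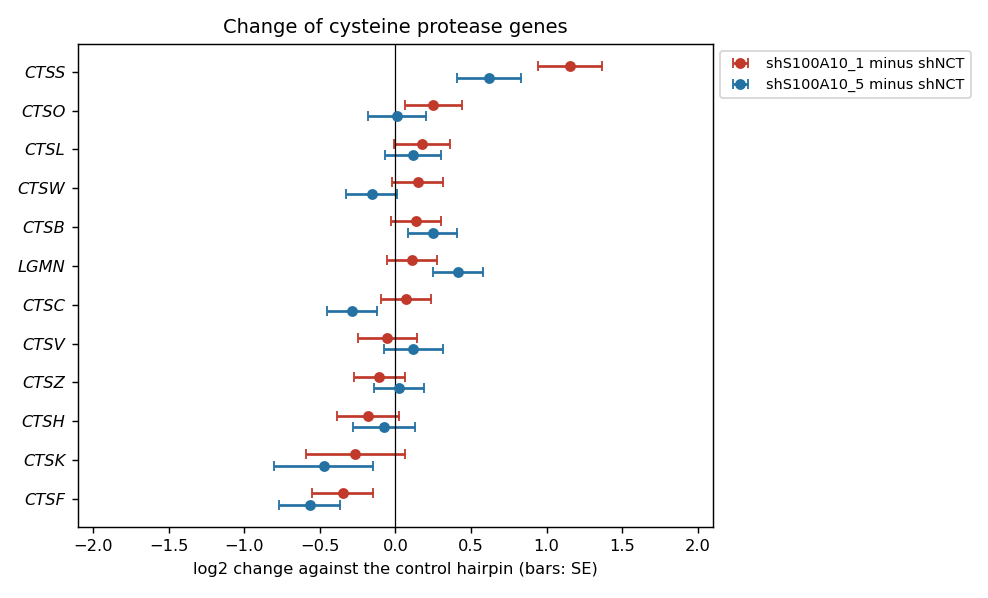
Log2 change of 12 cysteine protease genes against the control hairpin, with standard errors (bars), ordered by the change with shS100A10_1. All lie between -0.57 and 1.15, with CTSS the highest with both hairpins.

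Other gene groups in which cystatins are known were compared with the family. Of 13 other genes of the cystatin superfamily and its relatives, 8 were measured, and 0 passed limma's threshold with either hairpin against the control (at an unadjusted p under 0.05, CST11 higher and CST9 lower with shS100A10_1, and 0 with shS100A10_5). CST9 and CST11, described above, differed between the hairpins. The median log2 change of the 8 was 0.10 with shS100A10_1, within a range of -0.73 for CST9 to 0.90 for CST11, and 0.056 with shS100A10_5. Of 20 salivary and lacrimal secretory genes, 13 were measured and 1 passed with each hairpin. Over all probe sets 0.189% passed with shS100A10_1 and 3.18% with shS100A10_5. The secretory gene that passed was LYZ, the lysozyme gene. LYZ read 51.0 and 49.3 in the controls, 132 and 166 with shS100A10_1, and 129 and 127 with shS100A10_5. LYZ rose by 1.56 and 1.35 on the log2 scale (SE 0.18 each; limma, adjusted p = 0.00869 and 0.00865). Without either control array it passed with neither hairpin (adjusted p from 0.0604 to 0.0994), nor with shS100A10_1 without its replicate 2 (0.0549), nor with shS100A10_5 without its replicate 2 (0.0993). The secretory list as a whole had medians of -0.055 and 0.034, beside 0.0056 and 0.025 over all probe sets.

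Of 20 cornified envelope genes, the setting in which CSTA and CST6 are best known, 15 were measured and 0 passed limma's threshold against the control with either hairpin (0 and 1 at an unadjusted p under 0.05). Their medians were 0.078 and 0.024. FLG, the filaggrin gene, was higher with shS100A10_5 than with shS100A10_1 by 1.29 (SE 0.29; limma, adjusted p = 0.0454), at 30.0 and 62.6 against 17.1 and 18.3, and the call was lost with any array left out except shS100A10_5 replicate 1 (adjusted p from 0.065 to 0.158). Among the marker lists of mesenchymal breast lines, luminal cells and fibroblasts, 0 of 6, 0 of 7 and 0 of 6 measured genes passed by limma against the control with either hairpin, while 1 to 3 in each list met an unadjusted p under 0.05, as did 8.44% and 21.0% of all probe sets. Over the 3 comparisons the smallest p in each list belonged to TGFBI (0.74 with shS100A10_1; limma, adjusted p = 0.357), to TFF1, higher by 0.88 with shS100A10_5 than with shS100A10_1 (adjusted p = 0.0489, and from 0.0545 to 0.211 with any array left out), and to LUM, higher by 0.98 with shS100A10_5 than with shS100A10_1 (limma, adjusted p = 0.0784) and by 0.97 than in the controls (0.0738). The LUM change with shS100A10_5 against the controls ranged from 0.57 to 1.38 with 1 array left out. Against the control alone, the smallest p of the luminal list were those of KRT19 and EPCAM with shS100A10_5. The keratin gene KRT19 changed by -0.81 (limma, adjusted p = 0.0618) and the adhesion molecule gene EPCAM by 0.72 (adjusted p = 0.0624). Both were named after their values were seen.

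The genes whose levels followed the cystatins most closely were read as a description over the 6 arrays, among 1566 named probe sets with an SD of at least 0.4. For CST1 they were AGR2, a disulfide isomerase of the secretory pathway (Pearson r 0.990), and AGMO, an ether lipid monooxygenase (0.988). Next came ABI3BP, a matrix protein gene (0.987), PRLR, the prolactin receptor gene (0.984), and MPZL2, an adhesion molecule (0.984). All 5 had the CST1 order of groups, which follows from choosing them by their likeness to CST1. AGR2 read 34.9 and 46.4 in the controls, 168 and 155 with shS100A10_1, and 110 and 115 with shS100A10_5. The log2 changes with shS100A10_1 and shS100A10_5 were 2.005 and 1.48 for AGR2, 2.26 and 1.55 for AGMO, 0.998 and 0.56 for ABI3BP, 0.97 and 0.56 for PRLR, and 1.80 and 1.33 for MPZL2.

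For CST7 the 5 closest were LRRC57 (Pearson r 0.984), the klotho-family gene LCTL (0.982), NNMT, which methylates nicotinamide (0.978), SERINC2, a membrane protein gene (0.975), and CORO2B, an actin-binding coronin gene (0.973). LCTL read 57.6 and 57.9 in the controls, 10.1 and 20.4 with shS100A10_1, and 75.0 and 51.5 with shS100A10_5, with 1 shS100A10_5 array on each side of the controls as for CST7. SERINC2 read 5802 and 5874 in the controls, 2339 and 2137 with shS100A10_1, and 6722 and 5598 with shS100A10_5. These 5 genes had log2 changes from -2.01 to -0.84 with shS100A10_1 and from -0.0096 to 0.25 with shS100A10_5. With 3 groups of 2 arrays, such correlations rest mainly on differences between the groups, and nothing about shared function follows from them.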

How the data were processed

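Total RNA was labelled with biotin for cartridge arrays, per the labels' protocols. The authors deposited linear normalized intensities, 1 for each probe set on each array, made with Transcriptome Analysis Console per the submitters' processing notes. For its version, background correction, normalization and genome build: not given in the sources used here. Log2 of each deposited intensity ended at 5 decimals (largest deviation 7.13e-10). No detection calls or scan dates were at hand, so no batch was tested, and the number of arrays limits the precision.

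Samples were grouped by title. Of 16965 probe sets, 15674 had 1 gene symbol and 1291 none; the brightest was used per gene. Log2 intensities of all 6 arrays were fitted with limma 3.58.1 in R 4.3.3 (lmFit, eBayes; 3 residual and 7.16 prior degrees of freedom), with two-sided tests and Benjamini-Hochberg adjustment over all probe sets at 0.05. The fit was tested on 20 simulated data sets with 200 changed probe sets each. For shS100A10_1 against control it recovered 1% of rises of 0.5, 42.5% of rises of 1 and 98.9% of rises of 2 on the log2 scale among 16965 probe sets. On average 5.36% of the calls were false. The simulated noise was drawn from the fit's own prior, alike in all groups, and changes were planted with shS100A10_1 only. Under that noise, changes near 0.5 would thus rarely pass in this comparison, and the other comparisons were not simulated. The cystatins and the gene lists were chosen with earlier results of these data known. Named were the 9 cystatins, S100A10, proteases (fixed targets, any passing, the 3 largest changes per hairpin), passing genes of each list (up to 4, or that with the smallest p), passing or adjoining chromosome 20 neighbours, and the 5 genes most like CST1 or CST7. Alternatives were other normalizations, a filter on dim probe sets, a pseudocount of 16, other variance priors, fewer groups, the replicate number as a block and each array left out.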

Additional observations from a re-analysis of the deposited data

Results flagged for a closer look

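Among the named genes other than the 9 cystatins and the 10 genes named for their likeness to CST1 or CST7, 6 differed between the hairpins by limma's test of that difference (shS100A10_5 minus shS100A10_1, over all probe sets). S100A10 was higher with shS100A10_5 by 2.70 on the log2 scale (limma, adjusted p = 0.00102). The cystatin genes CST9 and CST11 differed by 1.09 (limma, adjusted p = 0.0179) and -0.83 (0.0496), and APMAP, which lies beyond the cluster, by -0.91 (0.0224). FLG was higher by 1.29 (limma, adjusted p = 0.0454) and TFF1 by 0.88 (0.0489). Apart from S100A10, these calls did not hold with every array left out in turn; without shS100A10_5 replicate 2 the adjusted p was 0.12 for CST9, 0.115 for CST11, 0.11 for APMAP, 0.142 for FLG and 0.211 for TFF1. The FLG and TFF1 probe sets were dim, with mean levels above only 19.7% and 14.95% of probe sets. Their calls were also lost with quantile normalization, with only the groups compared and with 16 added to every intensity. With 16 added the differences were 0.84 for FLG and 0.51 for TFF1. A robust prior lost the TFF1 call as well. Of the 10 genes named for likeness, 5 also passed between the hairpins. All 5 were chosen for following the level of CST7, so they are not counted here.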

How the results depend on the processing

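Of 399 cystatin values under the 9 settings and with each of 6 arrays left out, 385 moved by at most 1 replicate SD and 14 by more. The sign differed in 8 of them, each with an array left out, for CST3, CST6 and CSTB with shS100A10_1, CST7 with shS100A10_5 and CST8 between the hairpins. The median cystatin change with shS100A10_5 was 0.44 without the dim probe sets, which removes CST8 and CSTA. With 1 array left out, the medians ranged from -0.05 to 0.11 with shS100A10_1, from 0.063 to 0.39 with shS100A10_5 and from -0.26 to -0.054 between the hairpins. The number of probe sets called depended on the setting. For shS100A10_1 (32 called) it was 60 without dim probe sets, 58 with the pseudocount, 98 with an intensity trend, 16 with only the groups compared and 8 to 16 with 1 array left out. For shS100A10_5 (539) it was 952, 1045 and 1454 in the first 3 of these and 3 to 994 with 1 array left out. Between the hairpins (494) it was 791, 882 and 1144, 291 with only the groups compared and 7 to 656 with 1 array left out. Of the 12 cysteine proteases, 1 passed with shS100A10_1 without dim probe sets and 1 with an intensity trend (CTSS in both), 1 between the hairpins with an intensity trend (CTSC), and 0 to 1 with shS100A10_5 with 1 array left out. The cause of these shifts was not tested. Of 747 values of the other named genes, leaving out the 10 named for likeness to CST1 or CST7, 687 kept their side of the threshold, 45 lost and 15 gained it, and 0 reversed. Of the 11 calls of these genes, the 3 for S100A10 held with every array left out. Of 447 values of the 10 genes named for likeness, 401 kept their side, 37 lost and 9 gained it. The replicate number as a block gave 33, 625 and 561 called probe sets and changed 1 of the calls of the other named genes, FLG with shS100A10_5 (limma, adjusted p = 0.0446). CST2 with shS100A10_1 was past the threshold under 4 of the 9 settings. These were the block, the pseudocount, an intensity trend and the fit without dim probe sets. Nothing is read from this, as CST2 was chosen for its rise. Deviations of arrays with the same number correlated at -0.022 between the controls and shS100A10_1 and at -0.035 between the controls and shS100A10_5. Between the hairpins they correlated at 0.19. The numbers thus show no pairing of the controls with either hairpin. Pairing between the hairpins was not tested beyond this value. Dim probe sets such as CST8, CSTA, CST9, CST11, FLG and TFF1 limit what the array can show.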
